A study of Mus musculus with 4 samples.

Results

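Immature dentate neurons are the young excitatory neurons that the adult hippocampus goes on making in the subgranular zone of the dentate gyrus. Radial glia-like stem cells give rise to dividing intermediate progenitors, these to neuroblasts that carry doublecortin (Dcx), a microtubule-binding protein of migrating neurons, and these to granule neurons that extend a mossy fibre to CA3. Prox1 is the homeobox factor of the granule lineage at both young and mature stages, while Sox11 and Sox4 are SoxC factors of young neurons, and Igfbpl1 and Draxin encode secreted proteins, the latter a repulsive guidance molecule that binds Dcc. In the present data the young dentate nuclei were sought with a gate on raw UMI counts (unique molecular identifiers, 1 per captured RNA molecule). A barcode was taken if it had at least 3000 UMIs, at least 3 of Dcx and 1 of Prox1, at least 1 UMI of Sox11, Igfbpl1, Draxin, Neurod1 or Sox4, and at most 1 of Gad2, an enzyme of GABA synthesis. It found 341 of 37933 barcodes of that depth. These criteria chose the nuclei, so the levels of the genes in them are given as a description only.

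The nuclei came from hippocampus of adult mice and were profiled by single-nucleus RNA sequencing on the 10x Genomics Chromium platform. The study has 2 Control libraries, from Kat6a-f/f mice whose Kat6a gene is flanked by loxP sites, and 2 Kat6a-cKO libraries, from mice that carry the same Kat6a-f/f alleles together with NEX-cre. KAT6A is a histone acetyltransferase, and NEX-cre places Cre recombinase at Neurod6, which is active in excitatory neurons of the forebrain. The labels give no age other than adult, no batch, and no statement that each library was a separate animal, so p-values measure the spread between these libraries. Whether Cre had acted in nuclei as young as these is not given by the labels. Deposited totals were 171323466 to 186897245 counts per library, and 9088 to 10046 barcodes per library reached 3000 UMIs. Of the 341 gated barcodes, 4 had a sequence that also occurred at this depth in another library. The gate found 99 and 81 nuclei in the Control libraries and 94 and 67 in the Kat6a-cKO libraries, and the nuclei of each held 1504703, 1329612, 1392037 and 1157455 counts in this order. Mature granule nuclei served as the comparator. They had no Dcx UMI, at least 3 of Prox1, at least 1 of Slc17a7 and at most 1 of Gad2, and there were 4448 of them (1295 and 1286 in Control, 892 and 975 in Kat6a-cKO).

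Clustering placed 199 of the 341 gated nuclei in 2 clusters, picked by their share of gated nuclei, and the other 142 elsewhere. The gate thus held nuclei of more than 1 kind. All 37933 barcodes were clustered by expression without the 9 genes of the gate and the comparator, and 2 of the 60 clusters held at least 20 gated nuclei that made up at least 10% of the cluster. Another cluster passed 10% with 5 gated of 42 nuclei (11.9%), but 85.7% of its nuclei were marked as doublets and 0 of 5 immature markers were raised, and it is counted with the other clusters. The larger of the 2 (1042 nuclei) held 172 gated nuclei and was led by Sema3c, Adamts18, Igfbpl1, 2610307P16Rik and Sox11, and 4 of the 5 immature dentate markers were raised in it. The smaller (196 nuclei) held 27 and was led by Adamts18, Igfbpl1 and Spata13, with 3 of 5 markers raised. The larger and the smaller cluster also held 31 and 29 nuclei of the mature comparator. In the smaller, 12.8% of the nuclei were marked as doublets. These 2 clusters are called the immature dentate-like clusters. The 5 markers are genes of the gate and the clusters were picked by their share of gated nuclei, so the raised markers describe the clusters and do not support the name. A cluster of 816 nuclei led by Vwc2l and Tshz2, with 13 gated nuclei, had 2 of 5 markers raised and Dcx at 106 CPM (counts per standard total), against 114 in the smaller cluster, but Prox1 at 6.98 against 426. A further 35 gated nuclei lay in 3 granule clusters and 107 were scattered over 27 other clusters, 9 of which consisted mostly of doublets and held 38 of them. Of the 142 nuclei outside the immature dentate-like clusters, 50 (35.2%) were marked as doublets by Scrublet and the median depth was 24636 UMIs, against 5 doublets (2.51%) and a median of 5710 UMIs among the 199 inside. The nuclei inside gave 24.5% of the summed counts of the gate although they were 58.4% of its nuclei. Their share of the gated nuclei was 62.6%, 63.0%, 52.1% and 55.2% in Control 1, Control 2, Kat6a-cKO 1 and Kat6a-cKO 2, lower in each Kat6a-cKO library than in either Control library. The results below are therefore given for the whole gate and for the nuclei inside, with 226722 to 383049 counts per library in the latter, or for both sides.

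**Figure D1:**
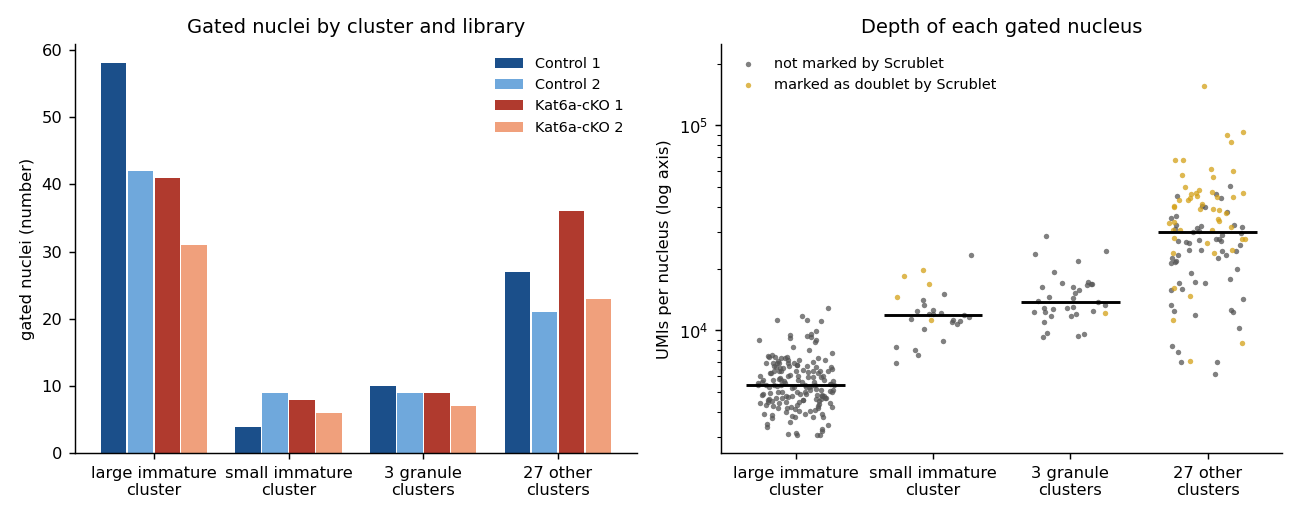
Left, number of gated nuclei by library in the large and small immature dentate-like cluster, the 3 granule clusters and the other clusters. Right, UMIs of each gated nucleus on a log axis, 1 point per nucleus with the median as a line, coloured by the doublet call. The large cluster held 172 gated nuclei, none marked as a doublet, while the 107 in other clusters had a median of 30062 UMIs.

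Marker levels differed between the nuclei inside and those outside. Values here are CPM (counts scaled to the same standard total in every sum) in the order Control 1, Control 2, Kat6a-cKO 1 and Kat6a-cKO 2. The summed level of the 5 markers Dcx, Sox11, Igfbpl1, Draxin and Neurod1 was 1457, 1212, 1158 and 1239 inside and 223, 167, 289 and 164 outside. The comparator had 24.9, 28.5, 25.3 and 26.4, and barcodes of 10 to 100 UMIs, which hold mostly free RNA, had 37.2, 48.7, 47.6 and 52.3. All 5 are genes of the gate, so the excess of both sets over the comparator was fixed by the selection, and the 2 clusters were picked by their share of gated nuclei. A fixed minimum of UMIs also weighs more in CPM in a nucleus of few UMIs, and the medians were 5710 UMIs inside and 24636 outside. The higher sums inside are therefore given as a description. The mature granule list (8 of 8 detected, Prox1 among them) was at 1036, 1201, 992 and 1098 inside, 758, 805, 496 and 568 outside and 1604, 1483, 1409 and 1379 in the comparator, lower inside than in the comparator in every library and lowest outside. Markers of CA pyramidal neurons (6 genes, all detected, Neurod6 among them) went the other way, with 563, 583, 741 and 672 outside, 73.1, 84.3, 48.3 and 88.2 inside and 81.7, 81.5, 70.4 and 99.97 in the comparator. Oligodendrocyte markers (5 of 5 detected) ranged from 78.3 to 306 outside and from 136 to 222 inside. The inhibitory list (5 of 5 detected) was higher inside, at 213 to 300, than in the comparator, at 67.6 to 75.1. Astrocyte markers were at 429 to 569 inside and 221 to 292 in the comparator. Radial glia-like markers were near 0, at 4.41 to 26.1 inside, with Sox2, Nes and Vim at 0. Mossy cell markers were at 13.1 to 34.3 inside and 23.1 to 32.4 in the comparator. Microglia (199 to 260 inside, 144 to 196 in the comparator), endothelial (10.5 to 30.9), oligodendrocyte precursor (0 to 13.1), committed precursor (0 to 7.83), Cajal-Retzius (7.9 to 13.2) and choroid or ependymal markers (0 to 15.8, with 3 of 4 at 0) completed the lists inside. Their part in the results was not tested.

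The companion genes were part of the gate and are described here without a test. Igfbpl1 was at 229.7, 166, 169 and 238 inside and 15.2, 2.11, 20.7 and 6.45 outside, and every library inside lay above every library outside. Draxin was at 78.3, 44.8, 42.2 and 39.7 inside and 1.78, 0, 5.66 and 2.15 outside. Of the 180 gated nuclei with a UMI of either gene, 154 lay inside. Sox11 was broader, with 525, 466, 365 and 322 inside, 59.7, 43.2, 83.9 and 44.1 outside and 22.2, 25.4, 22.3 and 24.3 in the comparator. Neurod1, a bHLH factor of the transition from progenitor to neuron, had a UMI in only 6 of the 341 gated nuclei, and its level inside was 0 to 4.41. Dcx itself was at 624, 535, 579 and 635 inside and 145, 119.99, 177 and 112 outside, where the same 3 UMIs are a smaller part of a deeper nucleus. Prox1 was at 689, 677, 627 and 679 inside, above the 335, 347, 332 and 337 of the comparator, and at 135, 147, 99.9 and 109.6 outside, below it. At the edge of the gate, 176 members had exactly 3 Dcx UMIs, of which 99 lay inside, while 409 barcodes met every other criterion with 2 Dcx UMIs, of which 184 lay in the same clusters. Barcodes that lacked only a companion gene numbered 170, and 7 of them lay there.

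The 250 bases before the annotated starts of Draxin and Prox1 are shown because they held a match to a motif searched. The promoters of 10 genes were searched, and those of Dcx, Sox11, Neurod1, Sox4, St8sia2, Adamts18 and Eomes held 0 matches, while that of Sema3c held 1. The sequences shown are from RefSeq (GRCm38.p6), minus strand, 5′ to 3′, and capitals mark matches to the letters ACAAAG of SOX factors, in Draxin as their reverse complement, or to the E-box letters CAGATG of NEUROD factors. Both strands were searched. Draxin, at chr4:148130699-148130948, held 2 SOX matches.
Draxin: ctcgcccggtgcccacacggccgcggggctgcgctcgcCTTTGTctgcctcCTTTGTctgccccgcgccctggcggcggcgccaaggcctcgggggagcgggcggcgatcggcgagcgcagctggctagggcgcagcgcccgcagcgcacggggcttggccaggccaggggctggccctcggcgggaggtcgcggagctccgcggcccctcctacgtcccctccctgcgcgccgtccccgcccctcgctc
Prox1, at chr1:190170828-190171077, held 1 E-box match.
Prox1: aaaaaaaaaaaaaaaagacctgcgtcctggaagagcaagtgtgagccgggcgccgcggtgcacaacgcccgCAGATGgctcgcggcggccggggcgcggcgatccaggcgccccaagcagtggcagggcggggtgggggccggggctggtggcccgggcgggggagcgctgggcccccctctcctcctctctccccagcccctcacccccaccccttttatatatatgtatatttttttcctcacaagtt
Over genes at least 2-fold higher inside than in the comparator in each library, defined below, 58 of 329 promoters (17.6%) held the SOX letters on either strand, against 19 of 237 (8.02%) for genes lower inside and 4447 of 27025 (16.5%) for all promoters in the table. The E-box letters were in 31 of 329 (9.42%), 21 of 237 (8.86%) and 3913 of 27025 (14.5%). The share of the higher genes was thus near the share of all promoters for SOX and below it for the E-box. A match describes letters only.

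The nuclei inside were compared gene by gene with mature granule nuclei. Depth was not matched. The comparator held 12565529 to 19696728 counts in 892 to 1295 nuclei per library. The nuclei inside held 226722 to 383049 counts in 37 to 62 nuclei, so they were shallower on average. The 9 genes of the gate and the comparator were left out. Other genes were counted if they reached 20 CPM in either class and were at least 2-fold higher, or lower, in each of the 4 libraries after 5 was added to each CPM value. Inside, 443 of 6975 genes were higher (6.35%) and 308 were lower (4.42%). For the whole gate the counts were 275 of 6455 higher (4.26%) and 47 lower (0.728%). Of the 275, 134 were also among the 443, and of the 47, 40 were among the 308. The direction was chosen by the gate, so no test was made of it. Outside those 9, the largest ratio inside was that of Sema3c, a secreted semaphorin, at 950.3, 606, 612 and 635 CPM against 5.18, 4.95, 5.81 and 6.16, a mean log2 ratio of 6.04 ± 0.34 (SD, n = 4 libraries). Next came Mtss1, which encodes a membrane-curving actin regulator (5.06), the metalloprotease gene Adamts18 (4.98), the noncoding 2610307P16Rik (4.92), the synaptotagmin Syt9 (4.57), Fnbp1l (4.54) and St8sia2 (4.06), whose enzyme adds polysialic acid to NCAM. The Rac activator Vav2, Psd2, Rgs6, Pcdh15, Pik3r1, Dpysl3, Lypd6 and Cntnap4 followed at 3.71 to 4.04.

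The genes farthest below the comparator inside were Slit1, a repulsive guidance ligand (−3.95 ± 0.94), Chst9 (−3.78 ± 1.68), Ntng1 (−3.68), Zfp804b (−3.61), Pde7b (−3.58 ± 1.26), the netrin receptor Unc5c (−3.57) and Rapgef5 (−3.54). After them came Cpne4, Adamts20, Rreb1, Zfp831, Mamld1, Hs3st4, Trpm3 and Adcy1, a calmodulin-stimulated adenylyl cyclase (−3.19). In Kat6a-cKO 2 inside, Chst9 was at 0 CPM and Pde7b at 4.41 CPM, so their ranks rest on few UMIs. Slit1 was at 41.8, 15.8, 54.3 and 8.82 CPM inside and 472, 446, 469 and 441 in the comparator. Rapgef5 was among the most even of them, at 20.9, 23.7, 30.2 and 26.5 against 324, 337, 370.2 and 355.

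For the whole gate the leading list was a mixture. Tshz2, a zinc-finger gene, had the largest mean log2 ratio (4.23 ± 0.31) but was at 424, 409, 452 and 365 CPM outside and only 10.4, 7.90, 3.02 and 4.41 inside, below the comparator's 16.04, 10.6, 16.1 and 7.02. Vwc2l (3.90), Nxph1 (3.56), Dpp10 (3.39), Gm32647 (3.38), Etl4 (3.30) and Mgat4c (3.27) were likewise several times higher outside than inside in every library. Sox5 (3.29) and Gpc6 (3.29) were higher outside in each library and above the comparator inside as well. Sema3c (4.21), Mtss1 (3.51), Fnbp1l (3.34) and Adamts18 (3.21) were carried by the inside nuclei, and Cntnap4 (3.74) and Elavl2 (3.14) by both. The genes lowest in the whole gate were Glis3 (−1.68), the interleukin-1 receptor genes Il1r1 (−1.64) and Il1rap (−1.52), Pdzd2, Pde7b, Chst9, Npnt, Slc4a4, Lgr6, Slc26a10, Nek10, Maml2, Plekha2, Gm20319 and Pip5k1b (−1.47). Il1r1 was at 15.7, 7.90, 12.1 and 4.41 inside, 25.9, 43.2, 26.4 and 38.7 outside and 92.2, 101, 95.1 and 95.95 in the comparator, so it was low on both sides.

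In the gene lists that follow, counts inside are to be read against the 6.35% higher and 4.42% lower over all genes. Counts in the whole gate are to be read against its 4.26% higher and 0.728% lower. A gene that reached 20 CPM in 1 class alone could hardly count in the other direction, so the counts are also given for genes that reached it in both classes, of which 197 of 5473 were higher inside (3.6%) and 212 lower (3.87%). Of the 30 listed genes of neuroblasts and outgrowing neurons, 12 were higher inside, 11 did not pass in either direction and 7 did not reach 20 CPM. Of the 15 that reached it in both classes, 5 were higher (Stmn2, Dpysl5, Klf7, Nfib and Nfia) and 0 lower, while the other 7 of the 12 reached it in the young nuclei alone. In the whole gate 5 of the 30 were higher. Calb2 encodes calretinin, the calcium-binding protein of a brief postmitotic stage of these neurons. It was at 52.2, 31.6, 21.1 and 26.5 CPM inside, 3.57, 1.05, 5.66 and 0 outside and 0.914, 1.22, 0.637 and 0.573 in the comparator. The microtubule and cytoskeleton genes Dpysl3 (172, 200.2, 199 and 176 against 9.44, 7.71, 7.48 and 8.67), Stmn1, Stmn2, Dpysl5, Tubb2b and the growth cone gene Gap43 were higher in each library inside. The remaining members were the factors Klf7, Nfib and Nfia, together with Sema3c and St8sia2. St8sia2 was at 104, 94.8, 51.3 and 123 inside and at 0.66, 0.692, 0.955 and 0.287 in the comparator, and Kat6a-cKO 1 was its lowest and Kat6a-cKO 2 its highest library.

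Genes of intermediate progenitors were few at this level. Mycn, a proto-oncogene of dividing progenitors, was at 80.9, 36.9, 48.3 and 52.9 CPM inside and 1.83, 3.46, 2.71 and 1.93 in the comparator. Ezh2, a histone methyltransferase of the Polycomb complex, was at 253, 277, 247 and 221 inside and 51.6, 43.1, 45.9 and 45.1 in the comparator. The cyclin D-dependent kinase gene Cdk6 was higher as well, and these were 3 of the 8 listed progenitor genes. The other 5 did not reach 20 CPM in either class, and a gene could reach it through the young nuclei alone. In the whole gate 2 of the 8 reached it and 0 passed. Eomes (Tbr2), the defining factor of intermediate progenitors, was low, at 18.3, 2.63, 12.1 and 8.82 inside, and the progenitor markers Eomes, Neurog2, Neurod4, Insm1 and Tfap2c summed to 7.9 to 28.7 inside. Of 18 cell cycle genes, 2 reached 20 CPM in either class, the cyclin gene Ccnd2 in both and Mki67 in the comparator alone, and 0 passed. Top2a was at 10.4, 18.4, 0 and 4.41 and Mki67 at 7.83, 7.90, 6.03 and 13.2, the latter not above the comparator's 19.9, 23.1, 17.99 and 21.9. No radial glia-like gene reached 20 CPM.

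**Figure D2:**
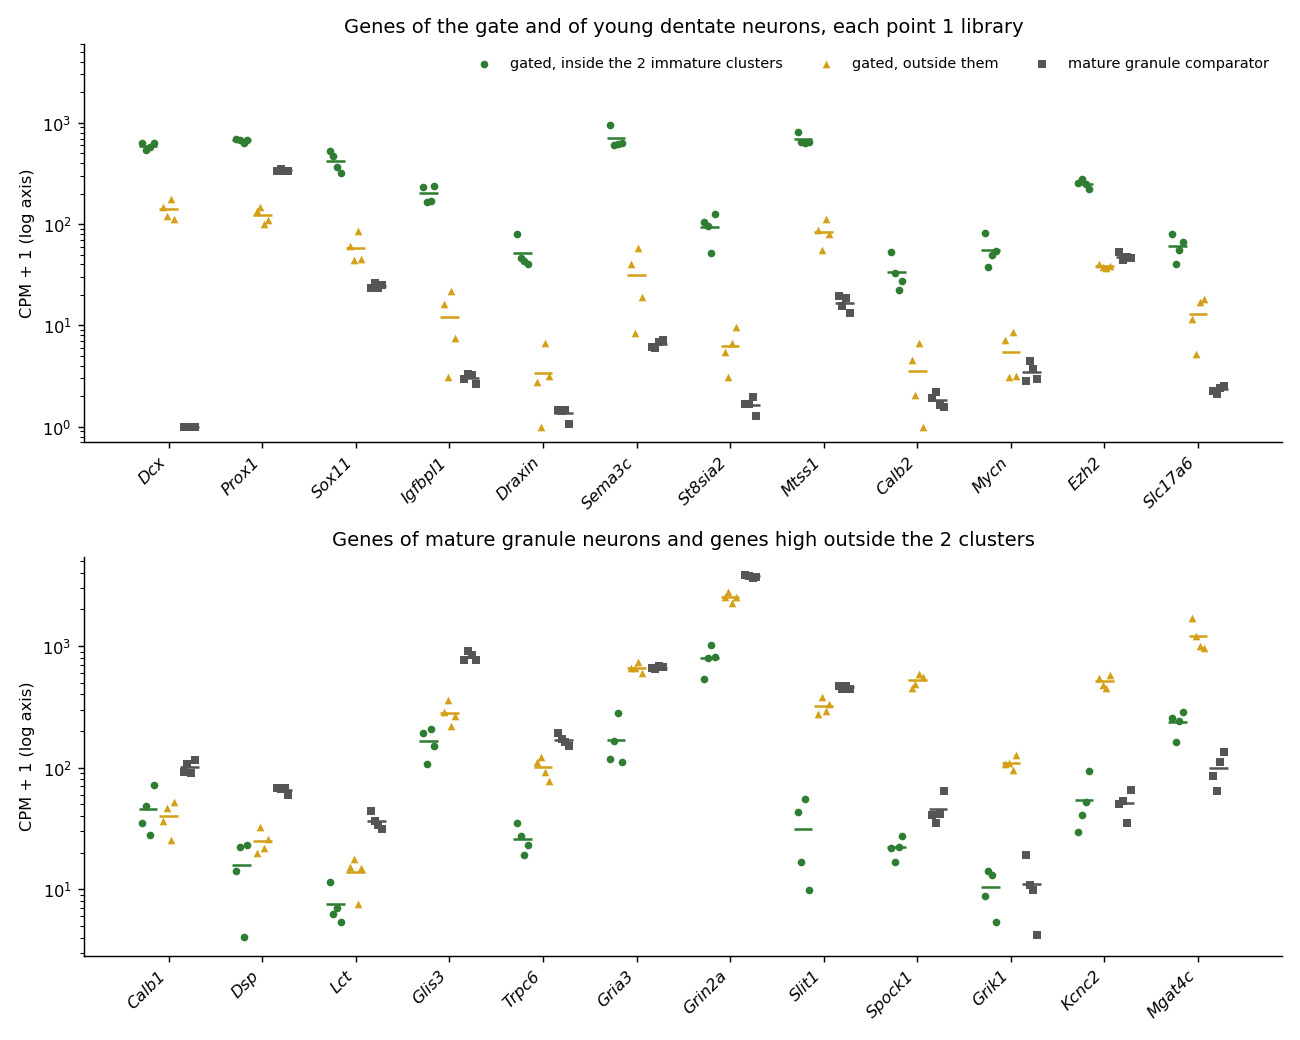
CPM + 1 on a log axis for gate and young-neuron genes (top) and for mature granule genes and genes high outside the immature dentate-like clusters (bottom). Each point is 1 library (Control 1, Control 2, Kat6a-cKO 1, Kat6a-cKO 2 from left to right) and the line is their mean, for gated nuclei inside, gated nuclei outside and the mature comparator. Igfbpl1, Draxin, Sema3c and St8sia2 are separated between inside and outside in every library, and Spock1, Grik1, Kcnc2 and Mgat4c run the other way.

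Of 17 genes of mature granule neurons, 7 were lower inside in each library (Icam5, Lct, Dsp, Glis3, Il16, Smad3 and Trpc6), 1, Camk4, was higher, 8 did not pass in either direction and 1 did not reach 20 CPM. Of the 9 that reached 20 CPM in both classes, 2 were lower (Glis3 and Trpc6) and 1 higher, while the other 5 lower genes reached it in the comparator alone. In the whole gate 4 were lower (Lct, Dsp, Npnt and Glis3). The desmoplakin gene Dsp was at 13.1, 21.1, 3.02 and 22.1 CPM inside and 66.7, 65.6, 66.5 and 58.5 in the comparator. Trpc6, a cation channel gene, was at 33.9, 26.3, 18.1 and 22.1 against 193, 169.8, 161 and 148. Calb1 encodes calbindin, which replaces calretinin as granule neurons mature. It was at 33.9, 47.4, 27.1 and 70.6 inside and 90.8, 106, 89.2 and 114 in the comparator, lower in each library but by less than 2-fold in at least 1 of them. Camk4, which encodes a nuclear calcium and calmodulin-dependent kinase, was at 209, 298, 289.6 and 251 inside and 75.6, 59.3, 76.6 and 70.4 in the comparator.

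Of 19 glutamate receptor genes, 5 were lower inside than in the comparator, among them Gria3, Grin2a, Grm3 and Grm8, and 1 was higher, Grin2d, a slow NMDA receptor subunit gene, and 13 did not pass. Of the 15 that reached 20 CPM in both classes, 4 were lower and 0 higher. Grin2a, the NMDA receptor subunit gene that rises with synapse maturation, was at 538, 798, 1026 and 803 CPM inside and 3809.6, 3791, 3613 and 3719 in the comparator. Gria3 was at 117, 163, 281 and 110.3 against 658, 647, 680.1 and 670.2. The whole gate gave another picture, with 3 receptor genes higher (Grik1, Grm8 and Gria4) and 0 lower. Grik1, at 105, 107, 95.2 and 126 outside and 7.83, 13.2, 12.1 and 4.41 inside, and Grm8, at 339, 267, 384 and 377 and 18.3, 7.90, 30.2 and 17.6, came from the nuclei outside.

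Among the 15 GABA and chloride genes measured, 1 was higher inside, the receptor subunit gene Gabrg1, and 0 were lower, a share near that over all genes. Gabrg1 reached 20 CPM in the young nuclei alone. In young neurons GABA is known to depolarize, which depends on 2 chloride transporters, and neither passed 2-fold in each library. Slc12a2 (NKCC1, which imports chloride) was at 102, 79.04, 90.5 and 79.4 CPM inside and 44.8, 39.9, 45.3 and 45.1 in the comparator. Slc12a5 (KCC2, which exports it) was at 52.2, 84.3, 84.5 and 79.4 against 144, 149, 123 and 131. Of the presynaptic genes 1 of 17 was higher, again through the young nuclei alone. That gene was Slc17a6 (VGLUT2), the vesicular glutamate transporter gene of early stages, at 78.3, 39.5, 54.3 and 66.2 against 1.27, 1.12, 1.43 and 1.50.

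Axon guidance genes had members in both directions. Inside, 11 of 32 were higher and 4 lower, with 9 and 3 among the 27 that reached 20 CPM in both classes, and in the whole gate 5 of 30 were higher and 0 lower. The receptor genes Dcc, Robo1, Plxna2, Plxna3, Nrp2, Neo1 and Ephb2 and the semaphorin genes Sema3a, Sema3e, Sema5a and Sema6d were higher. Dcc, the receptor of both netrin and the Draxin protein, was at 7268, 6623, 6757 and 7503 CPM inside, 2334, 1718, 1818 and 2363 outside and 1288, 1119, 1247 and 1391 in the comparator. Plxna2, a semaphorin receptor gene of mossy fibre guidance, was at 1180.01, 801, 908 and 692 against 131, 129, 145 and 129.99. Robo2, Robo3, Unc5c and Slit1 were lower. Of 16 Wnt pathway genes, 3 were higher (Lrp5, Apcdd1 and Wnt5a) and 1 lower (Lgr6) inside, and 0 of the 10 that reached 20 CPM in both classes passed. Rspo2, which encodes a Wnt agonist and is named in the study's title, was among the higher genes of the whole gate and not of the nuclei inside, at 97.2, 76.8, 78.3 and 49.4 outside and 0, 7.90, 12.1 and 8.82 inside. Among 19 potassium channel genes, 2 were higher inside, Kcnh7 and Kcnn2, and 4 lower, among them Kcnd2, Kcnj6 and Kcnip4. Kcnip4, the Kv4 channel partner, was at 869, 1088, 2018 and 1570.2 against 11101, 11619, 11288 and 11317. Kcnc2 was among the 5 channel genes higher in the whole gate, at 542, 475, 454 and 580.2 outside and 28.7, 39.5, 51.3 and 92.6 inside. For immediate early genes 0 of 4 and for Kat6a complex genes 0 of 5 passed inside. Ribosomal protein genes had a median log2 ratio of 0.73, with 0 of 17 past 2-fold in each library.

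The clusters also offered a larger set of nuclei with Dcx and Prox1 that needed fewer UMIs of the gate genes. Of their 1238 nuclei, 726 had at least 1 UMI of Dcx and 1 of Prox1 (126 to 225 per library), with a median of 5279 UMIs. All 1238 nuclei had 577 of 6961 genes higher (8.29%) and 310 lower (4.45%) than the nuclei of the 3 granule clusters in each library. For the 726 nuclei, 513 of 6887 genes (7.45%) were higher and 268 (3.89%) lower, and 12 of 22 neuroblast genes and 0 in the other direction were among them. Sema3c was at 651, 529, 563 and 419 CPM there and Igfbpl1 at 197, 176, 167 and 193, below the gated nuclei inside in each library for Sema3c and in 3 of 4 for Igfbpl1. This set was chosen after the data were seen, and it is set beside the gate in the genotype comparison below. It contains all gated nuclei inside, so it is not an independent check.

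Whether the deletion changes the share of young neurons was the first comparison between genotypes. Gated nuclei were 7.10%, 5.93%, 9.53% and 6.43% of the gated and comparator nuclei together, with 95% Wilson intervals of 5.87 to 8.57, 4.79 to 7.30, 7.85 to 11.5 and 5.09 to 8.09, which cover counting error only. The mean was 6.51% ± 0.832 (SD, n = 2) in Control and 7.98% ± 2.19 in Kat6a-cKO, a difference of 1.47 percentage points. The exact permutation test (two-sided) gave p = 0.667, and 2 libraries against 2 cannot give less than 0.33. Kat6a-cKO 1 was the highest and Control 2 the lowest library, and Kat6a-cKO 2 lay between the Control libraries. Without Kat6a-cKO 1 the difference was −0.0837 points. Of all barcodes of this depth the shares were 1.03%, 0.884%, 0.936% and 0.737% (difference −0.119 points, exact permutation p = 0.667). The gated nuclei inside gave a difference of 0.240 points and the 726 cluster nuclei one of −0.282 points (exact permutation p = 1 for each). The sign of the dentate share thus varied with the definition. As a share of all barcodes, the mean was lower in Kat6a-cKO for the gate and for each alternative definition tried. The nuclei inside were 0.643%, 0.557%, 0.488% and 0.407% of all barcodes, with each Kat6a-cKO library under each Control library (difference −0.153 points, exact permutation p = 0.33, the smallest possible). The 726 cluster nuclei were 2.33%, 1.87%, 2.03% and 1.39%, where the groups overlapped (−0.392 points, exact permutation p = 0.667). The dentate share has the comparator in its denominator, which had fewer nuclei in both Kat6a-cKO libraries. The share of all barcodes depends on the other nuclei in each library, whose make-up also varied. The 3 granule clusters held 3437, 3206, 3031 and 2779 nuclei. The cluster led by Vwc2l and Tshz2 held 145, 134, 264 and 273. Their part in the lower shares of all barcodes was not tested.

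**Figure D3:**
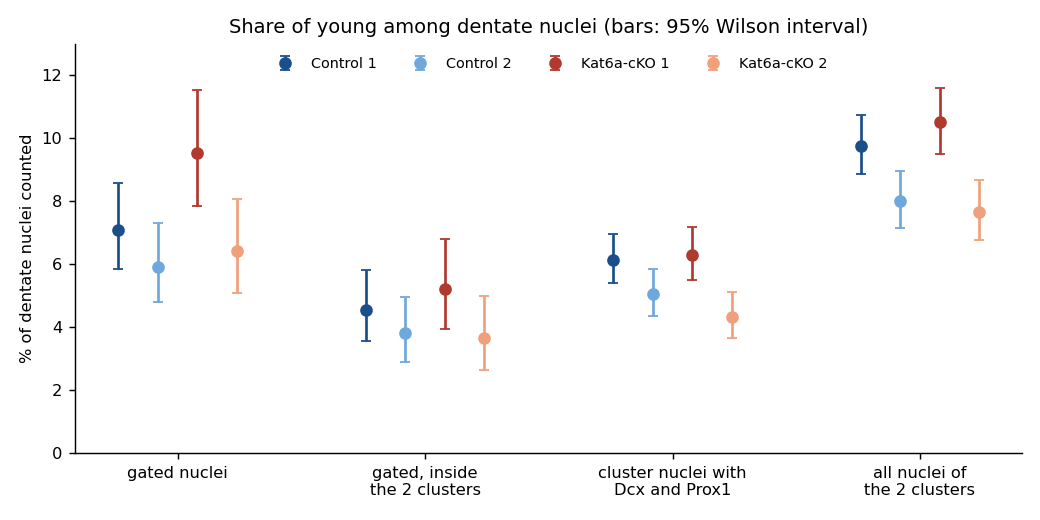
Share of young nuclei among the dentate nuclei counted, in percent, for 4 definitions and 4 libraries with 95% Wilson intervals. Within each definition the Kat6a-cKO libraries span a range that overlaps the Control libraries, with Kat6a-cKO 1 highest in each.

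Kat6a was at 113, 98.5, 91.95 and 75.2 CPM in the gated nuclei, with the Kat6a-cKO pair under the Control pair. The log2 fold change of Kat6a-cKO over Control was −0.30 ± 0.17 (SE, n = 2 libraries per group) with an adjusted p of 0.736 by edgeR's quasi-likelihood test. Inside, Kat6a was at 180.1, 150.2, 109 and 146 and in the comparator at 93.5, 96.1, 88.02 and 85.99. The deleted exons are not given in the sources used here and the counts cover the whole gene, so this does not check the deletion. The entry for the Cre sequence had 0, 0, 2 and 0 counts in the gated nuclei, under the 3 counts that a count of 0 allows, so no difference was detectable at this depth. Neurod6, the gene that carries NEX-cre, was at 22.6, 26.3, 13.6 and 21.6 in the gated nuclei (log2 fold change −0.46 ± 0.32, edgeR adjusted p = 0.795). Inside it was at 31.3, 34.3, 6.03 and 22.1 and in the 726 cluster nuclei at 32.5, 30.9, 11.9 and 16.4 (−1.19 ± 0.31, adjusted p = 0.213), each time with both Kat6a-cKO libraries lowest.

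Of 9637 genes tested in the gated nuclei, 1 passed the threshold (0.0104%), a Benjamini-Hochberg adjusted p under 0.05 over all of them. It was Gm3279 (ENSMUSG00000108063.1), a long noncoding RNA at chr6:55684571-55694574 on the plus strand (mm10), a stretch that no other annotated gene overlaps and that lies next to Neurod6 (chr6:55677822-55681263). It had 2 and 2 counts in Control and 23 and 20 in Kat6a-cKO, or 1.35, 1.50, 17.1 and 17.7 CPM after TMM scaling (log2 fold change 3.53 ± 0.56, edgeR adjusted p = 0.0484). Its counts came from outside. The 199 nuclei inside had 0, 2, 1 and 0 counts of Gm3279, and the nuclei outside 2, 0, 22 and 20, spread in Kat6a-cKO over 13 and 12 nuclei. The comparator also had more in Kat6a-cKO, with 0.0508, 0.266, 1.91 and 2.36 CPM. With 3 counts in all inside, a change of Gm3279 was not detectable there at this depth. In the gated nuclei edgeR gave 723 genes an unadjusted p under 0.05, DESeq2 called 0 genes with 159 at that level, and the edgeR fit with a replicate block called 0 with 738. With a library left out, 1 group has a single library, the spread comes from the other group alone and the lone library is assumed to vary like it. The number of calls was then higher, at 88 and 46 without Control 1 or 2 and 30 and 105 without Kat6a-cKO 1 or 2.

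**Figure D4:**
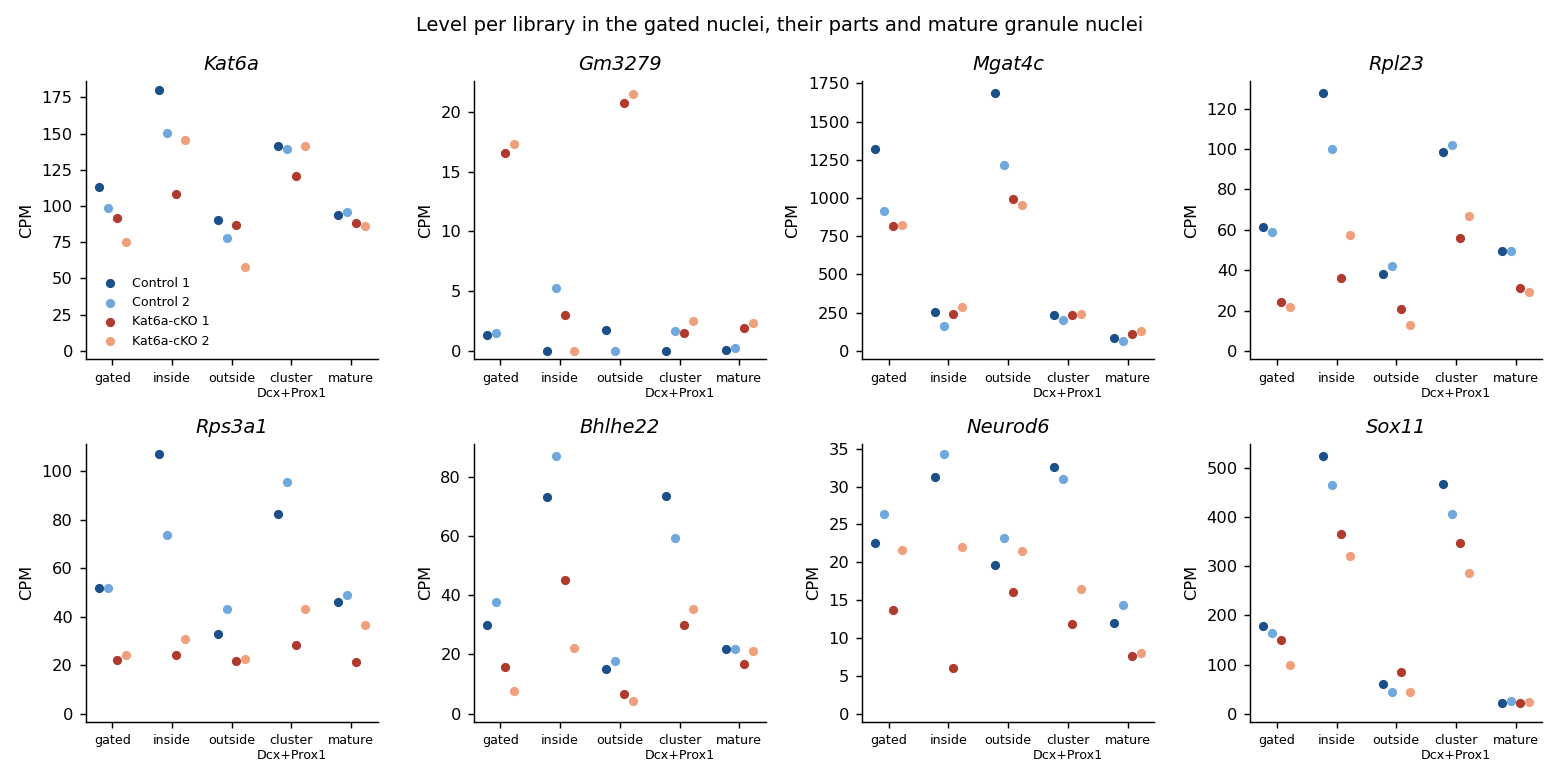
CPM in each library for 8 genes, in all gated nuclei, those inside and outside the immature dentate-like clusters, the 726 cluster nuclei with Dcx and Prox1, and the mature comparator. Gm3279 and Mgat4c take their levels from the nuclei outside, whereas Bhlhe22, Rps3a1 and Sox11 are highest inside, where the Kat6a-cKO libraries lie below the Control libraries.

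The genes next in line in the gated nuclei did not pass. Toward higher values in Kat6a-cKO they were the HMG-box gene Tox (0.96 ± 0.17, adjusted p = 0.0850), the ETS factor gene Etv5 (1.20), Thsd7b (0.73), Pex5l, whose protein regulates HCN channels (0.67), and Agbl4 (0.67), all by edgeR. Tox was at 78.5, 92.6, 170.7 and 133 CPM outside and 2.61, 7.90, 6.03 and 13.2 inside, and Etv5 at 30.3, 37.9, 72.6 and 81.7 and 10.4, 7.90, 3.02 and 4.41, so the values rest on the nuclei outside. Inside, Etv5 had 4, 3, 1 and 1 UMIs, too few for a direction. The summed CA pyramidal markers were likewise higher in both Kat6a-cKO libraries of the gated nuclei, with 439, 441, 576 and 557 CPM, and the oligodendrocyte markers were at 284, 269, 91.95 and 194. Their part in these values was not tested. Toward lower values the genes were Rpl23 (−1.34 ± 0.23, adjusted p = 0.0819), the actin-sequestering thymosin gene Tmsb4x (−0.78), Rnf220 (−1.21), the ferritin heavy chain gene Fth1 (−0.85) and Olfm1 (−0.84). Rnf220 was at 77.6, 75.8, 18.9 and 27.9 outside and 33.9, 23.7, 30.2 and 52.9 inside, where the groups overlapped, while Tmsb4x, at 781, 764, 437 and 498 inside, and Fth1, at 360.3, 377, 163 and 256, were lower in both Kat6a-cKO libraries inside as well. Each of these 10 genes passed with at least 1 of the 4 libraries left out, where 1 group is a single library, and with no filter on low counts.

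No gene of the gate or the young state passed the threshold. In the gated nuclei the log2 fold changes were −0.02 for Dcx, −0.11 for Igfbpl1, −0.24 for Sox4, −0.41 ± 0.18 for Sox11, −0.47 for Draxin, −0.33 ± 0.14 for Prox1 and −0.27 for Rspo2, with edgeR adjusted p of 0.597 or above. All of these but Rspo2 are genes of the gate. The same minimum was set in both genotypes, so the selection could hide a change in their levels. Sox11 was at 178, 164, 151 and 98.5 in the gated nuclei and 467, 407, 347 and 287 CPM in the 726 cluster nuclei, lower in both Kat6a-cKO libraries each time. Of 24 neuroblast genes 0 passed, 3 had both Kat6a-cKO libraries above both Control libraries and 6 below, where 17.8% and 18.7% of all genes did so, and the median change was −0.09 against 0.00 over all genes. Inside, 1 of 22 neuroblast genes was above and 3 below, and in the 726 nuclei 2 and 7 of 27. Over all cluster nuclei it was 2 and 9 of 27, where 18.2% and 19.2% of all genes did so. Of 20 glutamate receptor genes in the gate 6 were above and 1 below, inside 6 and 0 of 15, and in the 726 nuclei 9 and 2 of 20. The balance of axon guidance genes turned with the set, from 3 of 35 above and 7 below in the gate to 7 and 3 of 30 inside and 6 and 1 of 32 in the 726 nuclei. Over all genes the shares were 16.9% above and 17.5% below inside, and 17.7% and 18% in the 726 nuclei. Mature granule genes had 1 of 16 above and 8 below in the gate (median −0.21), 1 and 1 of 8 inside (median 0.17), and 2 and 5 of 17 in the 726 nuclei (median −0.16). The mature granule marker sum was 829, 918, 614 and 672 CPM in the gate, with each Kat6a-cKO library under each Control library, as it was outside, while inside the groups overlapped. Prox1, a gene of the gate, is part of this sum, and its share in the difference was not tested. Potassium channel genes had 6 of 21 above and 2 below in the gate, 4 and 2 of 17 inside, and 5 and 1 of 20 in the 726 nuclei. For Wnt pathway genes it was 2 of 22 above and 5 below in the gate (median −0.03) and 0 and 2 of 11 inside. In the 726 nuclei it was 3 and 3 of 20 (median 0.09). None of the 14 lists held a called gene in the gate, inside or in the 726 nuclei. Over all nuclei of the 2 clusters the neuroblast list held 1 of 27 tested (Bhlhe22) and the ribosomal list 2 of 19 (Rpl37a and Rpl41), all lower. Over all genes 41 of 10990 were called lower there (0.373%). Inside, edgeR called 0 of 5775 genes (0.0%), and 316 had an unadjusted p under 0.05. The smallest p there was that of Kcnip4 (0.91 ± 0.19, adjusted p = 0.297), at 869, 1088, 2018 and 1570.2 CPM, in which both Kat6a-cKO libraries were nearer to the comparator's level.

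Of the 14 lists, ribosomal protein genes had the highest share of members lower in Kat6a-cKO among lists with more than 3 genes tested. In the gated nuclei 18 were tested and all 18 had a lower mean in Kat6a-cKO, 15 with libraries that did not overlap, against 18.7% of all genes, and the changes ranged from −1.34 to −0.17 with a median of −0.55. None of the 18 passed in the gate, and 9 had an unadjusted edgeR p under 0.05, against 393 of 9637 genes lower at that level. Inside, 16 were tested and 8 had libraries that did not overlap, all lower in Kat6a-cKO, against 17.5% of all genes. The median inside was −0.50, and 3 had an unadjusted edgeR p under 0.05, against 153 of 5775 genes lower at that level. Over all nuclei of the 2 clusters 18 of 19 did not overlap, against 19.2% of all genes. There 14 had an unadjusted edgeR p under 0.05, all lower, against 584 of 10990 genes lower at that level. Of the 19, edgeR called 2, both lower, against 41 of 10990 genes called lower (0.373%). Summed over the 20 listed genes the level was 1553, 1420.1, 1041 and 1006 CPM inside, where each Kat6a-cKO library lay under each Control library. The same order held outside, with 554, 663, 439 and 390.02, and in the comparator, with 851, 884, 604 and 603, so the difference was not restricted to young nuclei. Free-RNA barcodes had 13417, 11425, 11575 and 10121, where the groups overlapped. Ribosomal protein genes have near-identical processed copies elsewhere in the genome, and how the deposited counts treated reads that match several places is not given in the sources used here.

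**Figure D5:**
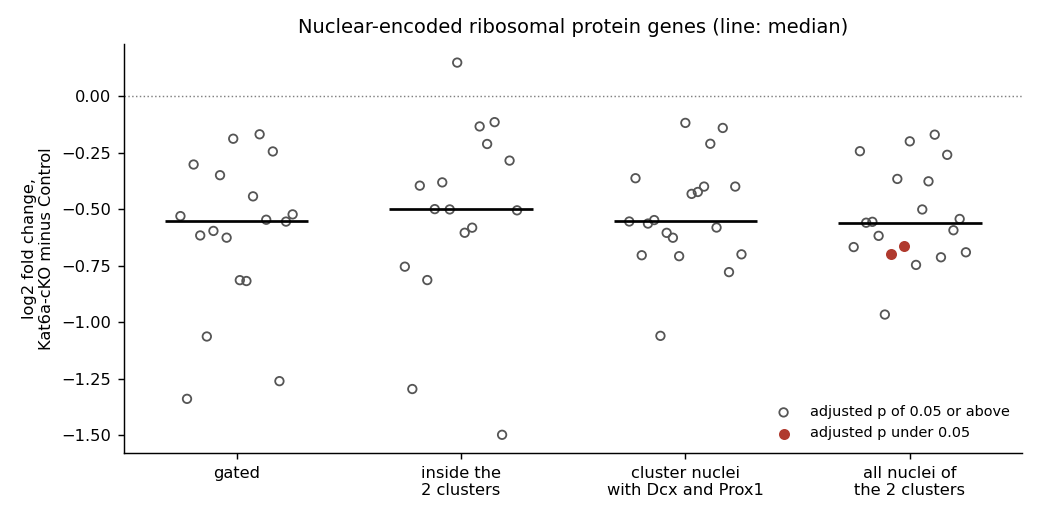
Log2 fold change, Kat6a-cKO minus Control, of each listed ribosomal protein gene tested, for 4 sets of nuclei; filled points passed the threshold and the line is the median. All 18 tested genes are below 0 in the gated nuclei and the medians of the sets lie between −0.56 and −0.50.

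In the 726 cluster nuclei with Dcx and Prox1, 1 of 9624 genes passed (0.0104%), the ribosomal protein gene Rps3a1 (−1.35 ± 0.22, edgeR adjusted p = 0.0392). Rps3a1 had 119 and 114 counts in Control and 38 and 34 in Kat6a-cKO, with at most 4 in any nucleus, and was at 82.4, 95.4, 28.3 and 42.96 CPM. In the comparator it was at 46.1, 49.1, 21.3 and 36.8, also lower in both Kat6a-cKO libraries. Bhlhe22, a bHLH repressor gene of differentiating neurons, picked for mention once its values were known, was at 73.4, 59.4, 29.8 and 35.4 in these nuclei (−1.03 ± 0.23, adjusted p = 0.110). In the gated nuclei Bhlhe22 was at 29.9, 37.6, 15.8 and 7.78 (−1.43 ± 0.33, edgeR adjusted p = 0.159) and inside at 73.1, 86.9, 45.2 and 22.1. The comparator had 21.7, 21.8, 16.9 and 21.2 of Bhlhe22, also with each Kat6a-cKO library under each Control library, though 21.2 lay close to 21.7. The counts of the 726 nuclei were spread, with 74 and 53 nuclei with a UMI in Control and 34 and 24 in Kat6a-cKO.

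Wider sets of cluster nuclei, chosen after the data were seen, gave more calls, some of which rested on few nuclei. Over all 1238 nuclei 48 of 10990 genes passed by edgeR (0.437%), 7 higher (0.0637%) and 41 lower (0.373%). Among the lower ones were 7 genes of motile cilia, the Cfap genes, whose products associate with cilia and flagella, and the Dnah genes of axonemal dyneins. Cfap299 had the smallest p of these (−3.04 ± 0.38, adjusted p = 0.00326), with 37.0, 80.6, 8.05 and 5.30 CPM. Of 788 UMIs of the 7 genes, 587 (74.5%) lay in 4 nuclei, 2 in each Control library, none of which had a Dcx UMI or was gated. With at least 1 Dcx UMI required, 19 of 9878 genes passed (0.192%), 10 higher (0.101%) and 9 lower (0.0911%), with the factor genes Meis2 (1.59) and Sox6 (1.75) and the noncoding Sox2ot (1.74) among the higher. The other higher genes were Nrxn3, Frmpd4, Rmst, Gm29260, Pcdh11x, Slc15a2 and Ror1, and the lower ones included Rps3a1, Chchd1, Actb, Cox6c, Tmsb4x, Uqcrb and Mt3. The 92 nuclei with Dcx but no Prox1 (16, 19, 44 and 13) held 55, 11, 75 and 127 UMIs of Meis2, with up to 40 in 1 nucleus, while the 726 with both held 7, 35, 41 and 17. Bhlhe22 passed over all cluster nuclei (−0.96 ± 0.19, adjusted p = 0.0412) and was lower in both Kat6a-cKO libraries in each of these sets. Sox6 was also higher in both Kat6a-cKO libraries of the 726 nuclei, without passing (1.26 ± 0.24, adjusted p = 0.0569), and in the gated nuclei inside it was at −0.02 ± 0.46.

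The last comparison asked whether genotype acts differently in gated and mature granule nuclei, by an edgeR interaction term between nucleus class and genotype, fitted with a block for each library. Of 14816 genes 1 passed (0.00675%), Mgat4c, which encodes an N-acetylglucosaminyltransferase-like protein. The change in gated nuclei minus that in the comparator was −1.12 ± 0.12 (adjusted p = 0.000201). Mgat4c was at 1319.9, 914, 817 and 824 CPM in gated nuclei and 84.1, 63.4, 109 and 133 in the comparator, with a lower mean in Kat6a-cKO in the first and higher levels in both Kat6a-cKO libraries in the second. In the gated nuclei 1 nucleus held 346 of the 1215 Mgat4c counts of Control 2. Without the nucleus of most Mgat4c counts in each library the levels were 1183, 674, 723 and 736 CPM, so Control 2 then lay below both Kat6a-cKO libraries and only Control 1 above them. The counts lay mostly outside, where Mgat4c was at 1684, 1215, 997 and 955. Inside, at 253, 161, 241 and 287, the groups overlapped, and with the gated nuclei inside alone the interaction was −0.36 ± 0.23 (adjusted p = 1), with 0 of 14471 genes called by edgeR (0.0%) and 555 at an unadjusted p under 0.05. DESeq2 also called 1 gene over the whole gate, Mgat4c. The number of calls was 11 and 2 without Control 1 or 2, and 17 and 35 without Kat6a-cKO 1 or 2.

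Other genes passed when the 726 cluster nuclei were set against all nuclei of the 3 granule clusters, with 12 of 17368 called (0.0691%). Some had a more negative change in the 726 nuclei than in the granule clusters. Among them were the retinoic acid receptor gene Rarb (−0.83 ± 0.14, edgeR adjusted p = 0.000197) and the ephrin receptor gene Ephb1 (−0.72 ± 0.14, adjusted p = 0.00161). The others were the angiopoietin gene Angpt1 (−1.06), the potassium channel gene Kcnq5 (−0.61), Gm15155 (−1.46), Gm26901 (−0.88) and Col1a1 (−5.17 ± 1.23). Those with a more positive change were the neurexin gene Nrxn3 (0.60), the receptor tyrosine kinase gene Ror1 (0.98), Sox2ot (1.18), Frmpd4 (0.59) and Gm29260 (3.26). Within the 726 nuclei the change of Rarb was −0.12 ± 0.13 (269.8, 239, 242 and 224 CPM after TMM scaling, adjusted p = 0.938) and that of Ephb1 −0.50 ± 0.19 (adjusted p = 0.543), so neither passed there. The −0.83 of Rarb is a difference from the granule clusters and not a change of that size in the young nuclei. Rarb, Angpt1, Kcnq5, Nrxn3, Sox2ot and Frmpd4 also passed with all 1238 cluster nuclei and with those that had Dcx, sets that contain the 726. In the whole gate Rarb was at −0.70 ± 0.20 (adjusted p = 0.743) and Angpt1 at −1.20 ± 0.27 (adjusted p = 0.370).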

How the data were processed

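Raw UMI counts per gene and barcode, deposited by the authors as 1 unfiltered matrix for each of the 4 libraries with 55422 gene entries, were used as deposited. The submitters' processing notes name mm10 and Seurat 4.0.1, and the aligner is not given in the sources used here. The members, gene lists and rules were chosen with earlier results of these data known. All 37933 barcodes of at least 3000 UMIs were normalised to 10000, reduced to 2000 variable genes and 30 components, and clustered (scanpy 1.11.5, Leiden 0.10.2, 15 neighbours, resolution 1) without the 9 gate genes and mitochondrial genes. Scrublet marked doublets, which stayed in.

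Counts were summed per library and class. Genotype was tested with edgeR 4.0.16 (quasi-likelihood, TMM, filterByExpr, Benjamini-Hochberg over all genes tested), with DESeq2 1.42.0 as an alternative, in R 4.3.3. Classes were compared by description. Named genes were all those past the threshold in the gated nuclei, the 5 of smallest p in each direction with a mean of at least 20 CPM and no overlap, the 15 largest and 15 smallest class ratios, the gate genes, Kat6a, the Cre entry, Neurod6, Rspo2 and list members. Genes of the cluster sets, which were added later, were named after their values were seen. The labels do not say that replicate numbers pair the libraries, so the main fit had no replicate block. The correlation of replicate differences between groups was 0.0673 over 6273 genes, which cannot exclude a pairing. In both groups replicate 1 had the higher share of gated among dentate nuclei. Gene positions are from GENCODE M21. On simulated counts of the gated nuclei, 180 of 191 genes with a log2 change of 2 were called, with 5 unchanged genes among 9337. For the interaction, 133 of 194 such genes were called, with 7 unchanged genes among 14375. Smaller changes and mixtures of nucleus kinds were not simulated. The values of some list members are not reported here.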

Additional observations from a re-analysis of the deposited data

Results flagged for a closer look

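Mgat4c was the 1 gene whose change with genotype differed between the gated nuclei and the mature granule nuclei by the interaction test. The difference of the changes was −1.12 on the log2 scale (edgeR adjusted p = 0.000201), and the mean of Mgat4c over the gated nuclei was lower in Kat6a-cKO, whereas it was higher in both Kat6a-cKO libraries of the comparator. In the gated nuclei 1986, 1215, 1137 and 954 counts came from 52, 43, 51 and 42 nuclei, and 1 nucleus of Control 2 held 346 of its 1215. Without the nucleus of most counts in each library the levels of Mgat4c were 1183, 674, 723 and 736 CPM, with Control 2 below both Kat6a-cKO libraries, a check added after the data were seen. Over 18 alternatives the difference ranged from −1.25 to −0.31, with the threshold passed in 12.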

How the results depend on the processing

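Counts of calls moved with most choices, and the cause was not tested. Against 1 gene changed with genotype, 0 were called with a Dcx minimum of 5, with 2 companion genes, with 2 Prox1 UMIs, with 5000 UMIs, with DESeq2, with sums thinned to the smallest, with the replicate block, or inside the clusters. Leaving out other lineages gave 15, leaving out doublets 2, no filter on low counts 75, all cluster nuclei 48, those with Dcx 19, and leaving out 1 library 30 to 105, where 1 group is a single library. For the interaction, against 1 gene, the counts were 12 with a Dcx minimum of 5, 3 with 2 companions, 3 with 2 Prox1 UMIs, 4 with 5000 UMIs, 6 without other lineages, 8 without doublets, 9 with a Calb1 comparator, 26 with no filter and 2 after thinning. They were 0 inside, 40 in all cluster nuclei, 25 with Dcx, 12 with Dcx and Prox1, and 2 to 35 with 1 library left out. Genes higher than in mature nuclei, 275 in all, numbered 176 with a Dcx minimum of 5, 443 inside, 577 in all cluster nuclei, 535 with Dcx and 513 with Dcx and Prox1. Genes lower, 47 in all, numbered 21 with a Dcx minimum of 5, 77 with 2 companions, 17 with 2 Prox1 UMIs, 92 without doublets, 308 inside, 310 in all cluster nuclei, 293 with Dcx and 268 with Dcx and Prox1.

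The difference in share, 1.47 points, turned to −0.282 in cluster nuclei with Dcx and Prox1, and ranged from −0.0837 to 3.02 with 1 library left out. Of the 10 genes named as next in line, each passed under 3 to 7 alternatives, always with no filter on low counts and with 1 or more libraries left out. These were Tox, Etv5, Thsd7b, Pex5l, Agbl4, Rpl23, Tmsb4x, Rnf220, Fth1 and Olfm1. The lowest adjusted p was 2.51e-05 for Agbl4, 0.000493 for Rnf220, 0.000449 for Tox, 0.0014 for Etv5, 0.00034 for Rpl23 and 1.51e-05 for Fth1. Some named genes turned direction, none of them past the threshold where it had turned. Dcx (−0.02) was at 0.31 with a minimum of 5, 0.0081 with 2 Prox1 UMIs, 0.025 without doublets, 0.022 after thinning, 0.10 inside, 0.057 in all cluster nuclei, 0.060 with Dcx, 0.034 with Dcx and Prox1, and from −0.21 to 0.14 with 1 library left out. Rnf220 was at 0.49 inside, 0.28 in all cluster nuclei, 0.47 with Dcx and 0.53 with both, and Agbl4 at −0.18, −0.52, −0.15 and −0.22. Igfbpl1 was at 0.20 with a Dcx minimum of 5, 0.049 inside and from −0.34 to 0.19 with 1 library left out. Sox4 was at 0.28 with that minimum, 0.20 inside and from −0.80 to 0.12 with 1 library left out. Rspo2 was at 0.85 with a Dcx minimum of 5, 0.27 with 2 Prox1 UMIs, 0.20 without other lineages and 0.49 in all cluster nuclei. Kat6a, Prox1, Sox11, Neurod6, Draxin, Rpl23, Tmsb4x and Fth1 turned direction under none of these alternatives. Dcx, Igfbpl1, Sox4, Prox1, Sox11 and Draxin are genes of the gate, so the selection could hide a change in their levels. The adjusted p of Gm3279 ranged from 6.26e-06 to 0.623. The 4 sets of cluster nuclei were added after the data were seen.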
